A study of Mus musculus with 3 samples.

Results

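The genes described here are 6 hallmark genes of the CD4+ CD8+ double-positive (DP) thymocyte that act at the cell surface or in the cytoplasm: Thy1, Cd24a, Ly6d, Cd27, Arpp21 and Aqp11. They are hallmarks of the cortical stage outside the recombinase, coreceptor, T cell receptor, SLAM and migration genes, and each was taken by its gene symbol. All 6 were found among the 19938 genes measured, each with 1 probe set, the group of short probes that gives a gene its value on the array. Messenger RNA was measured on 3 Affymetrix arrays, 1 for each cohort, and a cohort was made up of littermates (strain C57BL/6, wild type, 5 to 6 weeks old). Cells of each thymus preparation were held on beads for CD8 and then for CD4, and no other genotype, treatment or cell stage was hybridised. The labels do not say how many mice a cohort held, and the protocol describes formaldehyde fixation without saying whether the cells used for RNA were fixed. With 1 group, the data bear on whether each gene was detected, at what value, and how far the cohorts differed.

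DP cells fill the thymic cortex, where they rearrange the T cell receptor alpha chain and are tested for binding to self MHC. Their surface carries dense glycoproteins held in the outer leaflet of the membrane by a glycosylphosphatidylinositol (GPI) lipid, among them Thy-1, CD24 and Ly6D. CD24, also called heat-stable antigen, is abundant on immature thymocytes and is lost as cells mature, so it is a standard stain for thymocyte age. CD27 is a costimulatory receptor of the tumour necrosis factor (TNF) receptor superfamily. Arpp21 encodes a cyclic AMP-regulated phosphoprotein with an RNA-binding R3H domain, of which thymocytes make a long form, and Aqp11 encodes an aquaporin of intracellular membranes.

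Arpp21 carries a further product, since the hairpin of the microRNA gene Mir128-2 lies within it on the same chromosome. A paralogous pair, R3hdm1 and Mir128-1, has the same arrangement, and the mature sequences are shown because they tell the loci apart by the 5p arm alone. They are from RefSeq (GRCm38.p6), 5′ to 3′, with the seed, bases 2 to 8, in capitals.
mmu-miR-128-3p: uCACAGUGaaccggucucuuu
mmu-miR-128-2-5p: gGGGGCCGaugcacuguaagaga
mmu-miR-128-1-5p: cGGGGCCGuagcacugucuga
The 3p arm is encoded identically at chr9:112118644-112118664 (minus strand, Mir128-2) and at chr1:128202404-128202424 (plus strand, Mir128-1). The 5p arms, at chr9:112118679-112118701 and chr1:128202369-128202389, share the seed GGGGCCG and differ elsewhere.

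A promoter window, 250 bases before to 50 after an annotated start site, was held for 3 of the 6 genes, Cd27, Aqp11 and Arpp21. The windows are shown because the project that the arrays belong to mapped Ets1, Runx1 and E47, and each was searched on both strands for the E-box CANNTG that E proteins bind, for CCGGAA or AGGAAG as ETS letters and for TGTGGT or TGCGGT as RUNX letters. Matches are in capitals, RefSeq sequence, GRCm38.p6, and each window lies on the minus strand and is written in the direction of transcription. The Arpp21 window is 1 of 9. It was chosen as the most upstream to hold the E-boxes CAGCTG and CAGGTG and the ETS and RUNX letters, so these matches were part of the choice.
Cd27, chr6:125236978-125237277: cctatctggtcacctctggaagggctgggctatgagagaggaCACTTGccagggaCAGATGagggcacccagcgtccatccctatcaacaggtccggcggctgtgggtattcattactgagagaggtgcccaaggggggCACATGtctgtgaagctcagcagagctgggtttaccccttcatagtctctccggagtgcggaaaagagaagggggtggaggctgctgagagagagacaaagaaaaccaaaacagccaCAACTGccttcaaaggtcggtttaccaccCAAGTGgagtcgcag
Aqp11, chr7:97738198-97738497: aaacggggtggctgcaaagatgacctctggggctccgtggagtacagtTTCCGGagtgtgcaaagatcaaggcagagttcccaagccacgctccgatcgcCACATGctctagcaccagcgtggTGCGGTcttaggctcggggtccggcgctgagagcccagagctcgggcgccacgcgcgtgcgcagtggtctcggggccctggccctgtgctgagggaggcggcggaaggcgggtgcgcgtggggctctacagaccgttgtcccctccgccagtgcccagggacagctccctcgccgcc
Arpp21, chr9:112217302-112217601: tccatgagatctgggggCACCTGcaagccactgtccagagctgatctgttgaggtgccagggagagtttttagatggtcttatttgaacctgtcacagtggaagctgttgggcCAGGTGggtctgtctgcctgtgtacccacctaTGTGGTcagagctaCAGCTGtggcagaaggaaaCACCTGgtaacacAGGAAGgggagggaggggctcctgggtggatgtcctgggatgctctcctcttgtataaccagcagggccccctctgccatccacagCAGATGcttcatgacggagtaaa

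The Cd27 window held 5 E-boxes and no match of the ETS or RUNX letters. The Aqp11 window held 1 match of each motif. The Arpp21 window shown held 5 E-boxes, of which 1 was CAGCTG and 3 were CAGGTG on one strand or the other, with 1 ETS and 1 RUNX match. Of the 9 Arpp21 windows, several of which overlap, all 9 held an E-box, 3 held CAGCTG, 6 held CAGGTG, 3 held the ETS letters and 3 the RUNX letters. Among 32817 promoter windows of the same length, 72.3% held an E-box, 16.3% CAGCTG, 20.2% CAGGTG, 45.2% the ETS letters and 22.4% the RUNX letters. These short motifs are frequent by their length, and a match describes the letters and not a bound site.

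The arrays gave nearly equal distributions of values, and array 1 stood apart from the other cohorts. A difference of over 1 log2 unit was found for 72 genes in the pair of arrays 1 and 2, for 60 in the pair of 1 and 3, and for 11 in the pair of 2 and 3. Xist, expressed from the inactive X chromosome of females, had 11.65 on array 1, 5.40 on array 2 and 5.68 on array 3. By this gene array 1 held RNA of females, and arrays 2 and 3 gave no sign of it. Sex therefore cannot be told apart from other differences between array 1 and the other arrays. All 8 DP markers checked (Cd4, Cd8a, Cd8b1, Rag1, Rag2, Dntt, Ptcra and Cd3e) lay above background on every array. Of the markers of other cells, 1 of 12 B cell, 0 of 5 erythroid, 3 of 13 thymic epithelial, 2 of 11 stromal and endothelial, 2 of 14 myeloid and dendritic and 4 of 11 NK and gamma-delta T genes did.

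All 6 genes were detected far above background in every cohort. A gene was called above background where it exceeded a limit on each array, set so that 95% of 101 organ-restricted genes (liver, pancreas, muscle, brain and others) fell under it. The limits were 7.16, 7.08 and 7.10 log2 units for arrays 1, 2 and 3. By that rule 44.5% of all genes lay above background on all 3 arrays, against 6 of 6 here. With the 99th percentile as the limit, 34.6% of all genes did, and again 6 of 6 here, and with the background median plus 1 log2 unit 46.2% and 6 of 6. The median of the 6 gene means was 11.45, against 6.85 for all genes and 8.98 for the genes above background. The 6 were chosen as DP hallmarks with earlier results of these data known, so these comparisons describe them and test nothing. Signal also depends on how well a probe binds, so the 6 values are not ranked against each other. In bulk RNA of sorted cells, fewer cells that express a gene and less RNA per cell cannot be told apart.

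**Figure D1:**
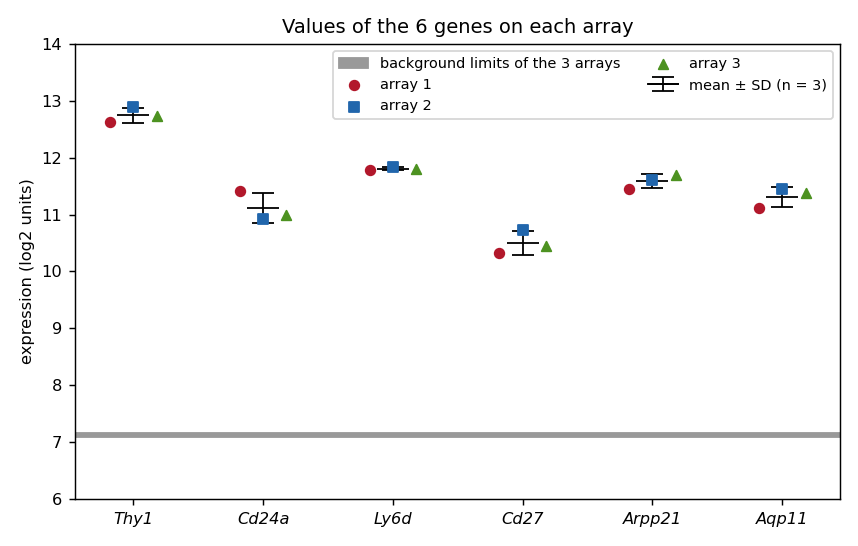
Expression of the 6 genes (log2 units) on arrays 1, 2 and 3, with the mean and SD of the 3 arrays; the grey band spans the background limits of the arrays. Every point lies above 10 while the band lies near 7, and Cd24a is the gene whose array 1 point is the highest of its 3.

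Among the GPI-anchored proteins, Thy1 encodes a small immunoglobulin-domain glycoprotein that covers mouse T cells from the thymus onward. Its value was 12.62 on array 1, 12.89 on array 2 and 12.73 on array 3, a mean of 12.75 ± 0.14 (SD, n = 3 here and below). Array 1 was the lowest and array 2 the highest, 1.21-fold apart. Even the nearest approach to the background limit left a gap of 5.46 log2 units.

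Cd24a encodes the heat-stable antigen, a very short and heavily glycosylated peptide. It read 11.42, 10.93 and 11.00 on arrays 1, 2 and 3, with a mean of 11.12 ± 0.27. Array 1 was high and the other 2 arrays lay within 0.07 of each other, so that the highest value was 1.40-fold the lowest.

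Ly6d encodes the ThB antigen, a Ly6-domain protein found on cortical thymocytes and on B-lineage cells. Its values of 11.79, 11.83 and 11.81 were nearly the same, with a mean of 11.81 ± 0.02. Only 3.50% of the genes above background had a smaller range over the arrays. That closeness depended on the scaling, since quantile normalization gave 11.73, 11.88 and 11.83 with array 1 still lowest. Of the 12 B cell markers measured, 11 lay below the limit on all arrays, among them Cd79a at 5.09 ± 0.15 and Ms4a1 at 4.54 ± 0.26. The exception was Cd79b, at 8.73, 8.79 and 8.83. The part of B cells in the Ly6d values was not tested.

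The machinery that builds the anchor these proteins share was detected for most of its genes. Of 29 genes of GPI synthesis, attachment and remodelling, 24 lay above background on all arrays, or 82.8% against 44.5% of all genes. With the 99th percentile limit 19 did, and the list median was 8.46. Piga, whose product begins the lipid, had 8.39 ± 0.15. Pigk, Pigt and Gpaa1 belong to the transamidase that joins the finished anchor to the protein, and had 8.17 ± 0.07, 10.10 ± 0.21 and 8.91 ± 0.10. Pigc, Pigg, Pigw, Pigz and Pgap1 did not exceed the limit on every array, and 3 of these 5 did not on any.

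The measured relatives of Ly6d were, by contrast, mostly at background. The listed Ly6a, Ly6c1, Ly6c2, Ly6l and Ly6g5b were not analysed. Of 28 other Ly6 and uPAR domain genes measured, 4 lay above the limit on all arrays, or 14.3% against 44.5% of all genes. They were Ly6e at 12.96 ± 0.06, Ly6k at 8.24 ± 0.17, Lypd6b at 8.96 ± 0.10 and Lynx1 at 8.09 ± 0.15. With the 99th percentile as the limit 3 remained above, and Lynx1, at 7.92 on array 1, was the one that did not. Ly6f, Ly6g and Ly6h had 5.47 ± 0.11, 4.84 ± 0.33 and 6.47 ± 0.12, all below background. In the RefSeq gene order, Lynx1 is also the nearest measured gene on one side of Ly6d on chromosome 15, and on the other side Ly6g6g lay below background at 6.29 ± 0.12.

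Of 10 measured genes for proteins reported to bind CD24 or Thy-1, 5 lay above background, a share of 50% near the 44.5% of all genes. The 5 were the beta2 integrin chain Itgb2 (10.64 ± 0.17), the alpha V chain Itgav (8.87 ± 0.07), the syndecan Sdc4 (8.07 ± 0.17), Hmgb1 (10.76 ± 0.13) and Adgre5 (11.10 ± 0.02). Siglecg, a sialic acid-binding lectin that recognises CD24, was below background on all arrays at 6.59 ± 0.10, as was the myeloid integrin chain Itgam at 6.81 ± 0.18. Itgb3, the beta3 integrin chain, had 7.21, 6.96 and 7.09 and passed the limit on array 1 alone.

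Cd27 encodes the receptor for CD70 and passes its signal through TRAF adaptors. Its values were 10.33, 10.73 and 10.44 on arrays 1, 2 and 3, with a mean of 10.50 ± 0.21. Array 2 was the highest, and 89.9% of genes above background had a smaller range than its 0.40. Cd70, the ligand, lay below background on every array with 5.67, 5.69 and 6.13.

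Most of the measured genes of the CD27 pathway were detected. Of 12 measured pathway genes, 10 lay above background, or 83.3% against 44.5% of all genes. With the 99th percentile limit 8 did, and the listed Traf3, Nfkb1 and Chuk were not analysed. The adaptor Traf2 had 10.06 ± 0.08 and Siva1, which encodes a protein that binds the CD27 tail, had 8.83 ± 0.26. Traf5, the other adaptor used by CD27, was with Cd70 the exception, at 6.78 ± 0.09 and below the limit on all arrays. The list was on average 0.12 above its own 3-array mean on array 1, where Cd27 itself was 0.17 below.

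Of 27 other TNF receptor superfamily genes, 12 lay above background, or 44.4%, a share near that of all genes. With the 99th percentile limit the count was 7. Tnfrsf1a and Fas, which carry death domains, had 10.04 ± 0.15 and 9.50 ± 0.09, and Tnfrsf1b had 8.20 ± 0.08. Ltbr, the lymphotoxin beta receptor, was above the limit on arrays 2 and 3 but not on array 1, with 7.05, 7.33 and 7.36.

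Arpp21 had 11.45, 11.61 and 11.69 on arrays 1, 2 and 3, with a mean of 11.58 ± 0.12. Array 1 was the lowest and array 3 the highest, 1.18-fold apart. The probe set of Mir128-2, whose hairpin lies inside Arpp21, had 7.58, 7.66 and 7.99 and exceeded the 95th percentile limit on all 3 arrays, but the 99th percentile limit on array 3 only. The array cannot say whether such a probe set reads the hairpin or unspliced RNA of the host, and it does not measure the mature microRNA printed above.

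At the paralogous locus, Mir128-1 had 6.98, 6.81 and 7.05, below the limit on each array, and its host R3hdm1 was above it on each, at 9.72 ± 0.05. Both microRNA probe sets and both hosts were highest on array 3, as were 27.3% of all genes above background. R3hdm1 had 9.71, 9.68 and 9.77 and Mir128-1 lay below background, so their order over the arrays carries little weight.

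The measured genes of the lists drawn up around Arpp21, of relatives and of translation factors, were detected throughout. All 14 measured genes of the R3H and ARPP list lay above background (12 with the 99th percentile limit), against 44.5% of all genes. The list also holds the calmodulin genes Calm2 and Calm3 and the protein kinase A genes Prkacb and Prkar1a, which are not relatives of Arpp21. Arpp19 and Ensa, small phosphoproteins that inhibit a protein phosphatase in mitosis, had 9.22 ± 0.23 and 8.27 ± 0.26. R3hdm2, a further R3H domain gene, had 9.14 ± 0.08. The long form of the ARPP21 protein associates with the cap-binding translation complex. All 10 measured genes of a list of this complex and related factors lay above background (9 with the 99th percentile limit), with a list median of 11.12. The list includes Eif4ebp1, Eif4ebp2 and Eif4g2, which are not subunits of the complex, and the listed Eif4g1 was not analysed. Eif4e, the cap-binding subunit, had 10.19 ± 0.22, the helicase Eif4a1 12.45 ± 0.04, the poly(A)-binding protein Pabpc1 12.90 ± 0.05 and Eif4a2 11.55 ± 0.20.

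Aqp11 had 11.11, 11.45 and 11.38 on arrays 1, 2 and 3, with a mean of 11.31 ± 0.18. Array 1 was the lowest, 0.27 below the nearer of the other 2 arrays. Its lowest reading was still 15.5-fold above the background limit on the linear scale. AQP11 belongs to a branch of the family that departs from the classical water-channel motif.

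The other aquaporins were mostly at background. Of 11 other aquaporin genes, 2 lay above background on all arrays, or 18.2% against 44.5% of all genes. These were Aqp2, at 7.36, 7.19 and 7.21, and Aqp5, at 7.23, 7.31 and 7.31, and neither exceeded the 99th percentile limit on all arrays. Mip, Aqp1 and Aqp3 had 6.04 ± 0.06, 6.62 ± 0.16 and 6.70 ± 0.04, all below background.

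**Figure D2:**
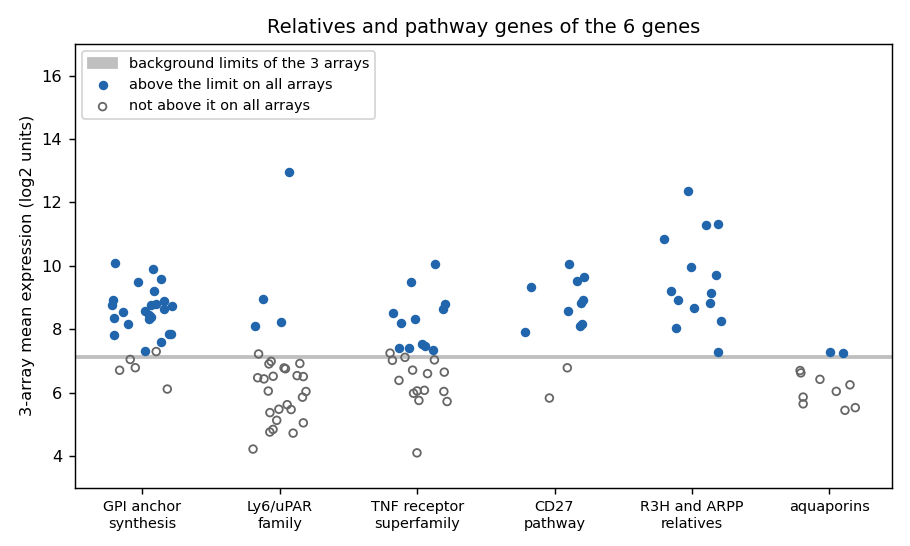
Mean expression over the 3 arrays (log2 units) of each gene in the families and pathways of the 6 genes, which are themselves left out; filled points were above the background limit on all arrays, open points were not, and the horizontal spread within a list has no meaning. The aquaporins (2 of 11 filled) and the Ly6 and uPAR family (4 of 28 filled) lie mostly under the band. The GPI anchor genes (24 of 29) and the R3H and ARPP list (14 of 14) lie mostly over it. That last list includes calmodulin and protein kinase A genes. Of all genes, 44.5% were above the limit on all arrays.

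The 6 genes did not all differ between cohorts in the same direction. Array 1 was the lowest for 5 of them, where 40.3% of all genes above background were lowest on array 1, and it was the highest for Cd24a, as for 39.0% of all genes above background. Relative to the mean of arrays 2 and 3, array 1 differed by -0.19 for Thy1, 0.46 for Cd24a, -0.03 for Ly6d, -0.26 for Cd27, -0.20 for Arpp21 and -0.30 for Aqp11. The signs were the same under quantile normalization and under centring each array on its median. Leaving out array 2 or array 3 could not change a sign, because array 1 was the lowest or the highest for each gene. The Cd27 difference was -0.11 without array 2 and -0.40 without array 3, and the Thy1 difference was -0.11 without array 2. Array 2 gave the highest value for 4 of the 6, Thy1, Ly6d, Cd27 and Aqp11, and for 29.6% of all genes above background, and array 3 gave it for Arpp21 and for 27.3%.

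None of the 6 passed the test of variation between cohorts. The limma test set each probe set's variance over the arrays against that of probe sets of similar level. After Benjamini-Hochberg adjustment 4 of 21789 probe sets passed, or 0.0184%. Yet 38 genes above background had a range over 1 log2 unit, so most differences of that size did not pass. The largest range among the 6 was 0.49, so the failure to pass does not show that they were alike between cohorts. The adjusted p of the 6 genes ran from 0.988 to 1.000 in limma. At an unadjusted p under 0.05 the count was 1, Cd24a (limma, unadjusted p = 0.0346), and 4.64% of all probe sets were under that value. Without array 1, Cd24a had an SD of 0.05 and an unadjusted limma p of 0.451, and the gene with the lowest unadjusted p was then Cd27 (limma, 0.00765, adjusted p = 0.709), which was 0.29 higher on array 2 than on array 3.

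**Figure D3:**
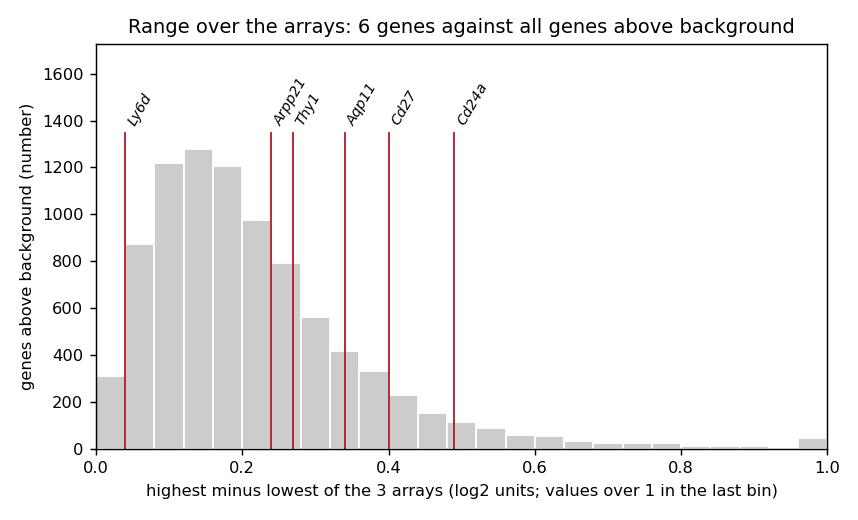
Number of genes above background (bars) by the difference between their highest and lowest array (log2 units, bins of 0.04, with values over 1 in the last bin), with red lines at the 6 genes. Ly6d lies at 0.04 in the left tail and Cd24a at 0.49, with a larger range than 94.6% of the genes.

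The higher value of Cd24a on array 1 stood beside other gene groups that were high there. The 12 immediate-early genes measured, which cells transcribe within minutes of a stimulus, were all highest on array 1, with a mean deviation of 0.83 there against -0.43 and -0.40 on arrays 2 and 3. Of 9 genes of mature single-positive T cells, 7 were highest on array 1, with mean deviations of 0.30, -0.23 and -0.07. The share of all genes above background that were highest there was 39.0%. The Cd24a deviations were 0.30, -0.19 and -0.12. The part of either group in the Cd24a difference was not tested, and sex, by Xist, cannot be told apart from array 1.

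Markers of other cells were also compared by array. The 14 myeloid and dendritic markers averaged 6.59, 6.17 and 6.40 on arrays 1, 2 and 3, with 8 of 14 highest on array 1. Cd74 and H2-Ab1 were the 2 above background on all arrays, and H2-Aa (8.44, 6.75 and 7.81) and Cd68 (7.45, 6.99 and 7.27) were above it on arrays 1 and 3. The other 10, Csf1r, Itgam and Itgax among them, lay below the limit on every array. The 11 NK and gamma-delta T markers averaged 6.43, 6.19 and 6.28, with 6 of 11 highest on array 1 and Gzma, Prf1, Nkg7 and Sox13 above background on all arrays. The 12 B cell markers averaged 5.81, 5.69 and 5.75, with 5 of 12 highest on array 1, and the 5 erythroid markers 6.19, 6.26 and 6.13, with 0 of 5. Of all genes above background, 39.0% were highest on array 1. Most of these markers, however, lay below the limit on every array. Of the 101 organ-restricted genes that set the limit, 25 were highest on array 1. The part of these markers in the value of Cd24a was not tested either.

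The 5 genes that were lowest on array 1 stood beside the other genes of the DP stage. Of 16 other DP stage genes measured, 14 were lowest on array 1, as were 40.3% of all genes above background. Their mean deviations were -0.13, 0.06 and 0.07 on arrays 1, 2 and 3. The deviation of array 1 was -0.13 for Thy1, -0.02 for Ly6d, -0.17 for Cd27, -0.13 for Arpp21 and -0.20 for Aqp11. Thymic epithelial markers had list means of 6.87, 7.02 and 7.04, under the background limit of each array, and 9 of 13 were lowest on array 1. Of the 101 organ-restricted genes that set the limit, 44 were lowest there. Among the epithelial markers, Cldn4 (8.99 ± 0.10), Ly75 (8.40 ± 0.11) and Ccl25 (7.64 ± 0.14) were above background on all arrays. A further 7, including Foxn1 and Psmb11, were below the limit on every array. The part of these groups in the difference was not tested, and sex again cannot be told apart from array 1.

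**Figure D4:**
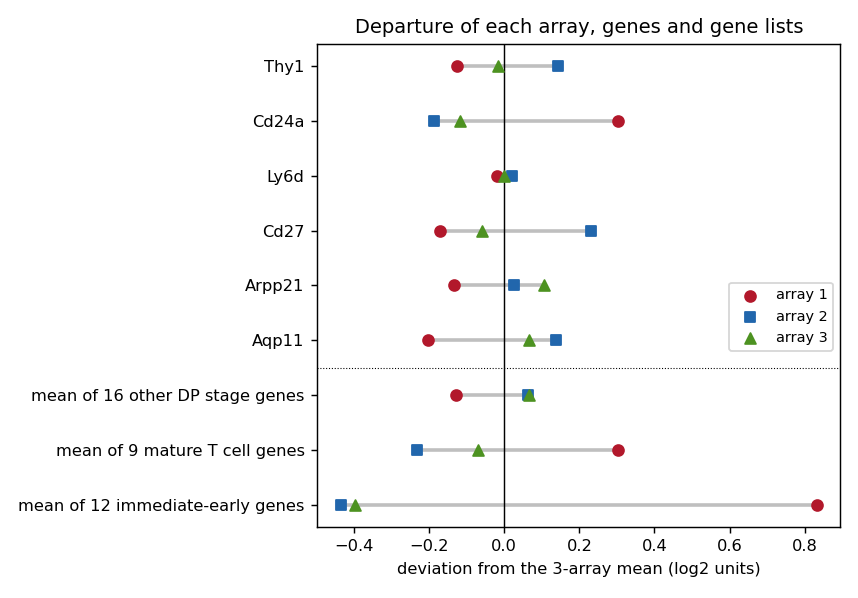
Deviation of each array from the 3-array mean (log2 units) for the 6 genes and, below the dotted line, for the mean of 3 gene lists. On array 1, Cd24a lies at 0.30 on the same side as the mature and immediate-early lists, and the other 5 genes lie between -0.20 and -0.02 on the side of the other DP stage genes.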

How the data were processed

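The authors deposited a single table of log2 values with a row for each probe set, covering 3 samples of DP thymocytes. Values between 1.60 and 14.94 show the log2 unit. Per the submitters' processing notes, affy was used, with no version named. How values were normalized and summarized, and on which genome build, is not given in the sources used here. Sorted values of the arrays differed by at most 0.15, so a global difference in RNA content would not be visible. Of 35556 probe sets, the platform annotation gives 1 gene symbol for 21789, several for 1621 and none for 12146, and those with 1 symbol were used. A gene with several was represented by the brightest.

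Gene lists, members and the 111 organ-specific genes of the background rule, of which 101 were measured, were chosen with earlier results of these data known, and list genes without a probe set of their own were not analysed here. By construction about 5 of the 101 pass the limit, and 5 did. Named genes are the 6 members, the first 4 measured genes of each list, the genes on one side of the limit where these are 5 or fewer, the 2 genes most alike in pattern and the nearest measured gene on each side. Genes of the 7 marker lists beyond these, Xist and the microRNA loci were named for the check they serve. Variance was tested with limma 3.58.1 in R 4.3.3, as an F test against a robust prior that follows the level, adjusted by Benjamini-Hochberg over all probe sets with 1 symbol, and the procedure was tested on simulated data. Other steps used Python 3.11.15 with pandas 2.3.3. Each p-value sets the spread of a probe set over the 3 arrays against that of probe sets of similar level. With 1 array for each cohort, differences between mice and between preparations or hybridisations cannot be told apart. An SD over 3 arrays has little precision. Sequences came from RefSeq tables of GRCm38.p6, in which Thy1, Cd24a and Ly6d were not matched. Alternatives were quantile normalization, median centring, each array left out, other limits, the mean of probe sets and other priors.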

Additional observations from a re-analysis of the deposited data

How the results depend on the processing

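The count of members above background was 6 under every alternative run. The number lowest on array 1 was 5 under quantile normalization and under median centring. Leaving out array 2 or array 3 could not change that number, and neither could the mean of probe sets, since each member has 1. No member passed the limma variance test under any of its 9 alternatives, in which the lowest adjusted p among members ran from 0.709 to 0.988. With a prior that did not follow the level, and with probe sets above background only, 0 probe sets passed in all. Those settings therefore say nothing of the members in particular. Under each of the others only 4 or 5 probe sets passed. Of 178 alternative values, 5 moved by more than the SD over arrays or, for a count, by over 1.5 times. A direction could change only under the other scalings, and 0 did. Quantile normalization gave -0.12 for Ly6d on array 1 against the mean of the others, instead of -0.03, a comparison chosen after the data were seen. The other 4 were counts with the 99th percentile limit: 7 TNF receptor, 0 aquaporin, 5 mature T cell and 7 immediate-early genes, where a higher limit leaves fewer genes by construction. No paired analysis was possible because the study has 1 group. With 3 arrays, signal over background limits what can be said of genes near the limit, such as Mir128-2, Aqp2 and Aqp5.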

Other observations

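Of the 12 measured genes nearest to the 6 on either side in the RefSeq gene order, 7 lay above background on all arrays. Of all genes, 44.5% did. Next to Thy1, Nectin1 lay below background on every array (6.84 ± 0.04, SD, n = 3 here and below), and Usp2 lay above it at 7.54 ± 0.15. Next to Cd24a, Mtres1 had 8.06 ± 0.09 and F930017D23Rik had 7.92 ± 0.14. Beside Cd27, Tapbpl, a relative of the MHC class I chaperone tapasin, had 8.82 ± 0.05, while Tuba3a was below background at 6.85 ± 0.12. Beside Arpp21, Stac was below background at 5.54 ± 0.08 and Pdcd6ip had 11.03 ± 0.05. Beside Aqp11, Clns1a, a chaperone of splicing proteins, had 10.06 ± 0.04, and Gdpd4 was below background at 4.38 ± 0.12.

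Among the 8863 other genes above background, likeness of pattern was measured as the root mean square difference of the 3 values after each gene was centred on its own mean. Over 3 arrays many genes are close by this measure, and ties were broken by name. For Cd27, 89 genes (1.00%) lay within 0.05 log2 units, with Stx16 and Phf1 the nearest at 0.0047 and 0.0082. For Cd24a, 163 genes (1.84%) did, with Fundc2 and Nkrf both at 0.0082. For Aqp11 there were 552 genes, led by Chek2 at 0 and Cby1 at 0.0047, and for Thy1 676, led by Acbd3 and Brd9 at 0.0047. For Arpp21 there were 1159, with Arf6 and Mmgt2 at 0, and for Ly6d, whose values barely differ, 2453, with Ankle2 and Cab39 at 0.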
